A study of Caenorhabditis elegans with 51 samples.

Results

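The catalytic-dead experiment compared Caenorhabditis elegans animals that carry an xrn-2 transgene with a double change in the active site on top of the mutant allele xe31 with wild-type (WT) animals. It was chosen by strain and hour from the labels, and it makes up 4 of the 51 samples of the series: 1 library per strain at 6 h and 1 at 10 h. The mutant strain, HW2216, carries an xrn-2(D234/236A)::gfp transgene together with the allele xrn-2(xe31), so that both aspartates of the transgene are replaced by alanine and the transgene product is fused to the green fluorescent protein. The WT strain is N2. All 4 groups of whole animals had grown for 59 h at 15 °C from the first larval stage (L1) to early L4 and were then moved to 26 °C, for 6 h or 10 h. RNA was polyA-selected. The labels do not give the promoter, copy number or insertion site of the transgene, and no strain with the transgene alone or with a WT transgene on xe31 was analysed here, so loss of nuclease activity, the extra xrn-2 copy, xe31 and the strain's background cannot be told apart. The labels do not say whether the libraries came from separate cultures. With 1 library per strain and hour, p-values of the main fits rest on how far the strain difference varied between 6 h and 10 h. That spread is shared in part over genes, and no replicates of the same hour enter it.

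XRN2 is a nuclear 5′-3′ exoribonuclease, an enzyme that degrades RNA from its 5′ end. In the torpedo model of transcription termination, a new transcript is cut at its polyadenylation site, and XRN2 degrades the piece that RNA polymerase II goes on making until the polymerase leaves the gene. Without it, RNA can extend past the gene end, which is called readthrough and is seen as reads downstream of the gene. In C. elegans, xrn-2 is essential, and PAXT-1 binds and stabilises the protein. The experiment asks what happens to gene ends and to gene expression when the strain's added XRN2 cannot cut RNA.

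The libraries held 74356542 and 50775586 gene counts in WT at 6 h and 10 h and 56318203 and 49628394 in the catalytic-dead strain. At least 1 count was found for 19114 and 18545 genes in WT and for 21085 and 22139 genes in the catalytic-dead strain. Expression levels are given in CPM, the counts scaled to library size, with TMM factors over the 30 polyA libraries of this experiment, the xe31 time course and its resequenced 6 h and 10 h samples. Of these, 15 libraries are WT (11 of the time course, 2 resequenced and 2 of this experiment) and 13 are xe31. The resequenced libraries may share RNA with the time course.

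The transcript of xrn-2 itself stood at 97.8 CPM at 6 h and 113.3 CPM at 10 h in WT, and at 472.5 and 403.0 CPM in the catalytic-dead strain. Both values of the catalytic-dead strain lay above every WT library and every xe31 library, whose highest values were 190.4 and 306.4 CPM. The log2 change was 1.99 ± 0.32 (SE, n = 2 libraries per strain), which missed the threshold (edgeR quasi-likelihood test, adjusted p = 0.0569). It passed with RLE size factors (adjusted p = 0.0429), with hour left out of the model (0.0237) and with DESeq2 (0.00109). Without scaling factors it again missed the threshold (edgeR, adjusted p = 0.0543). The counts include the resident allele and the transgene. In xe31 alone, xrn-2 changed by log2 0.85 ± 0.18 relative to its own WT in the resequenced libraries. The difference between the 2 effects was 1.11 ± 0.25 and did not pass the test (edgeR, adjusted p = 0.151). The cofactor gene paxt-1 stood at 58.1 and 91.0 CPM in WT and at 53.8 and 53.4 CPM in the catalytic-dead strain (log2 -0.50 ± 0.32, adjusted p = 0.348). For xrn-1, which encodes the cytoplasmic 5′-3′ exoribonuclease, the levels were 55.6 and 93.1 against 120.2 and 127.4 CPM (0.72 ± 0.32, adjusted p = 0.213), with both catalytic-dead values above every WT library. By gene order, eat-2, a nicotinic receptor subunit of the pharynx, lies next to xrn-2. It stood at 1.54 and 0.631 CPM in WT and at 1.24 and 0.747 CPM in the catalytic-dead strain, with overlap between the strains (adjusted p = 0.928).

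**Figure D1:**
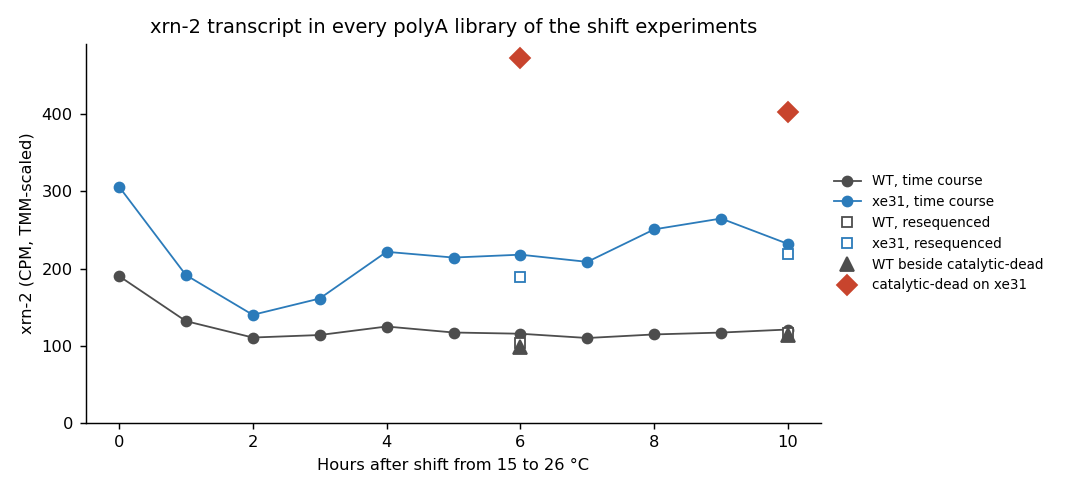
Level of xrn-2 (CPM, TMM-scaled) against hours after the shift in each polyA library, with lines for the time course, open squares for the resequenced samples and large symbols for the catalytic-dead experiment. The catalytic-dead libraries, at 472.5 and 403.0 CPM, sit above all other libraries.

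Counts downstream of genes, taken relative to the counts of the gene itself, were higher across much of the transcriptome in the catalytic-dead strain. The ribosomal protein gene rpl-33 had 1 and 2 downstream counts in WT at 6 h and 10 h, beside 91521 and 55782 gene counts. In the catalytic-dead strain it had 1054 and 612, beside 90531 and 71750 gene counts. Its ratio was 504-fold higher (95% counting interval 172 to 2447) while the gene's own counts were of like size in all 4 libraries. Of 10972 genes tested, 5012 (45.7%) rose in this ratio and 204 (1.86%) fell (edgeR, adjusted p under 0.05). The median of the log2 change over all tested genes was 2.40. Among the genes that rose, 3230 did so by more than 16-fold, and 7720 of all tested genes were higher at both hours.

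Summed over the 15337 genes listed in all 3 window tables, downstream windows held 1.12 and 0.996 counts per 100 gene counts in WT at 6 h and 10 h. In the catalytic-dead strain they held 2.57 and 3.52. The 15 WT libraries of all hours ranged from 0.820 to 1.46 and the 13 xe31 libraries from 0.837 to 1.97, so that both catalytic-dead libraries lay above all of these. The catalytic-dead to WT ratio was 2.30 at 6 h and 3.54 at 10 h (mean log2 1.51 ± 0.44 SD, n = 2 hours), against 1.19 and 1.68 for xe31 in the resequenced libraries (0.50 ± 0.35 SD, n = 2 hours).

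**Figure D2:**
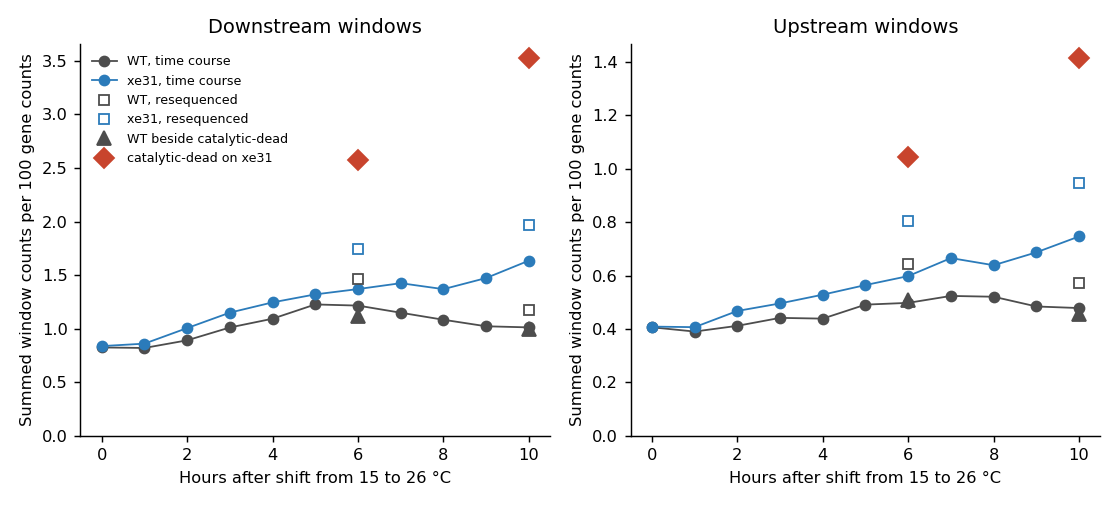
Counts summed over downstream windows (left) and upstream windows (right) per 100 gene counts, against hours after the shift, over genes listed in all 3 window tables. The catalytic-dead libraries hold 2.57 and 3.52 downstream counts per 100 gene counts, above all WT and xe31 libraries, and 1.04 and 1.42 upstream counts per 100 gene counts.

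The 15 genes with the largest rises of the ratio by the naming rule differed in how their own counts moved. For the next 7 genes WT had no downstream count, and the gene had at least 331 of its own counts in each catalytic-dead library. For ttr-15, which encodes a transthyretin-like secreted protein, WT had no downstream count at either hour and the catalytic-dead strain had 1590 and 3086, beside 40531, 20222, 30813 and 30010 gene counts in the 4 libraries. This put its ratio at least 1557-fold higher, with the floor of 3 counts over the 2 WT libraries. Twk-5, of the two-pore potassium channel family, went from 0 and 0 to 1315 and 797 downstream counts (at least 621-fold). For gpdh-1, a glycerol-3-phosphate dehydrogenase of the osmotic stress response, the counts were 0 and 0 against 715 and 316 (at least 1637-fold), beside 11725, 1098, 2005 and 687 gene counts. The peptide gene nspe-1 showed 0 and 0 against 448 and 711 (at least 766-fold), F41D9.2 0 and 0 against 318 and 614 (at least 707-fold), and T05B9.1 0 and 0 against 147 and 460 (at least 558-fold). For nlp-24, a neuropeptide-like gene, they were 0 and 0 against 99 and 63 (at least 588-fold), beside 15048, 1568, 1023 and 502 gene counts. Lower gene counts in the catalytic-dead strain, as for gpdh-1 and nlp-24, raise the ratio by themselves.

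In the other 8 genes the gene's own counts were also lower in both catalytic-dead libraries than at the same hour in WT, by amounts that differed widely. The yolk gene vit-5 had 15115 and 47024 gene counts in WT and 18 and 32 in the catalytic-dead strain, with 1 downstream count in all in WT and 169 in the catalytic-dead strain. Downstream counts of the collagen gene col-20 went from 1 and 1 to 259 and 132, and its gene counts from 153490 and 166522 to 831 and 2937. The collagens col-80 (0 and 1 against 45 and 14 downstream counts) and col-129 (9 and 2 against 115 and 212) also had far lower gene counts in the catalytic-dead strain. W02D9.7 (0 and 0 against 297 and 555), C04H5.7 (0 and 0 against 20 and 173), col-92 (0 and 0 against 211 and 46) and C09F9.1 (0 and 0 against 96 and 357) had downstream counts in the catalytic-dead strain that exceeded those of the gene itself in at least 1 of the 2 libraries. Of these, C09F9.1 had 431 and 289 gene counts in WT and 48 and 177 in the catalytic-dead strain.

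The rise was also present where the gene itself moved little. Among 2140 tested genes whose own counts stayed within 1.5-fold at both hours, 1229 (57.4%) rose in the ratio and 7 (0.327%) fell, with a median log2 change of 2.93. Their downstream windows held a median of 0.260 counts per 100 gene counts in WT and 2.79 in the catalytic-dead strain. Downstream counts set against library size in place of gene counts called 6148 genes higher and 136 lower.

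**Figure D3:**
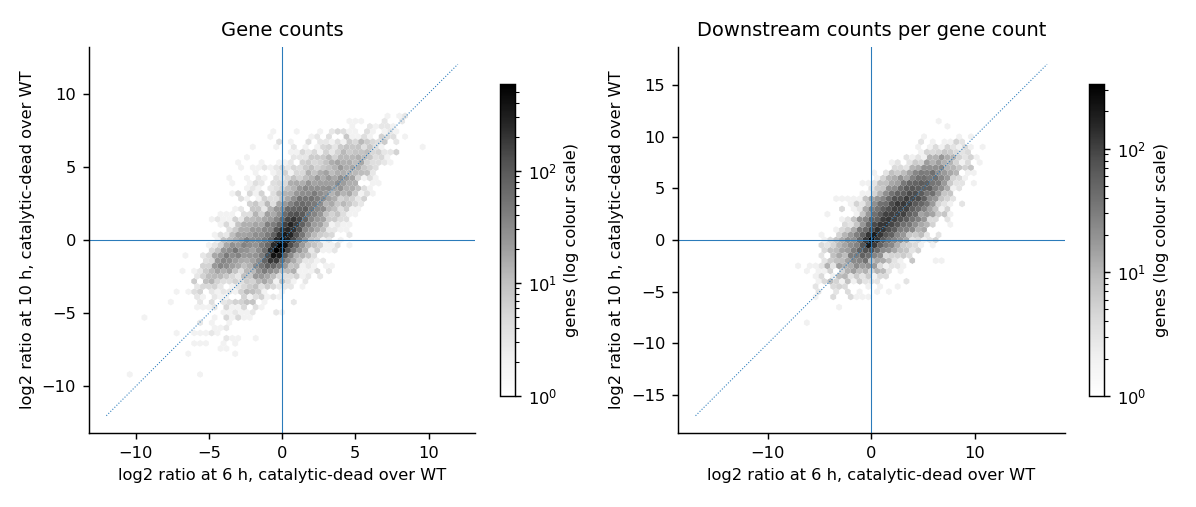
Log2 ratio of the catalytic-dead strain to WT at 6 h (horizontal) and 10 h (vertical), for gene counts of 17212 genes (left) and for downstream counts per gene count of 10972 genes (right), with darker cells for more genes. Gene counts centre near 0, with medians of 0.09 and 0.14, and the downstream ratio lies mostly above 0 at both hours, with medians of 1.90 and 2.09.

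The share of genes that rose was higher the more strongly the gene was read in WT. Of 4 equal bins by WT gene counts, the lowest was the one where the median gene had 21.5 counts, and 282 of its 2743 genes rose (10.3%). In the next 3 bins the shares were 36.5%, 60.1% and 75.8%. The median window held 29.3 counts per 100 gene counts in WT and 41.9 in the catalytic-dead strain in the lowest bin, and 0.0696 and 1.26 in the highest. The median log2 change was 0.29 in the lowest bin and 3.98 in the highest. The WT gene counts that set the bins are also part of the ratio. Of all tested genes, 30 had a 95% interval of the log2 change that lay within 2-fold in both directions, and 1 of these had a mean of at least 1000 WT gene counts.

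The counts of each gene list that follow stand beside 45.7% of all tested genes, and 75.8% of those in the highest bin of WT gene counts, that rose. Of the ribosomal protein genes, 47 of 56 tested rose and none fell (median log2 4.00, beside 2.40 over all tested genes). For rpl-30, the downstream counts were 13 and 17 in WT and 3262 and 2186 in the catalytic-dead strain, 169.97-fold higher in the ratio, and for rpl-22 they were 4 and 2 against 920 and 365. In the nucleolus and ribosome biogenesis list 14 of 16 rose (median 6.70). The rRNA processing gene rrp-1 went from 3 and 1 to 687 and 1441 (373-fold), and ncl-1, a repressor of nucleolar size, from 2 and 1 to 227 and 542. Chaperones of the endoplasmic reticulum and mitochondria rose in 10 of 11 (median 4.19). Calreticulin, crt-1, had 4 and 8 against 3228 and 2286 downstream counts (450.4-fold), and hsp-4, the BiP chaperone, 0 and 0 against 163 and 721 (at least 536-fold). The cytosolic Hsc70 gene hsp-1 had 23 and 13 against 2765 and 2468 (278-fold), within a list where 5 of 8 rose.

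Muscle genes, whose own levels in the 4 libraries were close, rose in the ratio in 19 of 21 tested members (median 5.54). The actin gene act-4 had 34 and 33 downstream counts in WT and 1268 and 1374 in the catalytic-dead strain (49.7-fold), and pat-10, a troponin C, 0 and 0 against 294 and 160 (at least 185-fold). The myosin light chain gene mlc-1 had 13 and 7 against 361 and 325 (51.4-fold). In the germline list 15 of 20 rose (median 5.28), among them the cytoplasmic poly(A) polymerase gld-2, with 7 and 3 against 503 and 595, and the P granule helicase glh-2, with 1 and 3 against 338 and 235. DNA replication and cell cycle genes rose in 15 of 18 (median 4.28). The replication clamp gene pcn-1 had 5 and 4 against 293 and 499 downstream counts (311-fold), and psf-2, a subunit of the GINS replication complex, 2 and 1 against 453 and 947. Sperm genes rose in 28 of 36, oocyte and eggshell genes in 14 of 17, and yolk genes in 5 of 5, with medians of 5.56, 4.66 and 10.81. In these 3 lists most gene counts were lower in the catalytic-dead strain, as given below, which adds to the ratio. The same applies to part of the replication list, where 13 of 31 genes were over 2-fold lower at both hours, and of the germline list (8 of 30). Gene counts of pcn-1 were 12010 and 24158 in WT and 5404 and 4843 in the catalytic-dead strain.

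Beside the same 45.7% of all tested genes, the counts were 12 of 21 for molting genes, 10 of 33 for hedgehog-related genes, 10 of 38 for ceh homeobox genes, 9 of 22 for neuronal genes, 6 of 26 for cuticulins (with 6 lower), 3 of 16 for pals genes, 4 of 57 for srh, srw and srsx chemoreceptors and 1 of 9 for ciliary transition zone genes (with 1 lower). The median log2 changes of the chemoreceptor and ciliary lists were 1.15 and -0.06. Of the glutathione S-transferases 14 of 27 rose, of the UDP-glucuronosyltransferases 16 of 36, of the cytochrome P450 genes 12 of 37, of the antimicrobial and immune effectors 24 of 59 and of the C-type lectins 29 of 93. The glutathione S-transferase gene gst-20 had 0 and 2 downstream counts in WT and 2647 and 2362 in the catalytic-dead strain, and the antimicrobial peptide gene fipr-2 had 6 and 4 against 690 and 953. Nuclear hormone receptors rose in 55 of 133, transthyretin-related genes in 22 of 39, intestinal genes in 10 of 16 and histones in 5 of 14. The intestinal stearoyl-CoA desaturase gene fat-6 had 0 and 0 against 140 and 161 (at least 123-fold). Of the cleavage and polyadenylation factors, which cut and tail RNA at gene ends, 6 of 9 tested members rose, with cfim-1 at 1 and 2 against 26 and 36 downstream counts. The nuclear exosome and Integrator genes rose in 7 of 12, with ints-11, the cutting subunit of Integrator, at 37 and 29 against 348 and 294. At xrn-2 itself, downstream counts were 2 and 0 in WT and 342 and 345 in the catalytic-dead strain, 81.6-fold higher in the ratio (95% counting interval 22.5 to 675). At xrn-1 the ratio differed by log2 0.85 ± 0.54 (edgeR, adjusted p = 0.245).

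Falls of the ratio were mostly at genes whose own counts were higher. Of the 204 genes that fell, 165 had gene counts over 2-fold higher at both hours, beside 2422 of all 10972 tested genes. The gene's own counts are part of the ratio, so that a higher gene count lowers it by itself. Under 100 summed gene counts in WT were found for 142 of the 204, and the share over all tested genes is not given here. For 93 of the 204, downstream counts were higher, not lower, in the catalytic-dead strain. The toxin antidote gene zeel-1 had 169 and 264 downstream counts in WT and 26 and 94 in the catalytic-dead strain, beside 5, 8, 513 and 730 gene counts. F29C12.6 (382 against 353 downstream over both hours) and F35E2.2 (460 and 29 against 480 and 757 downstream) had at most 1 gene count in a WT library and 102 to 276 in the catalytic-dead libraries. The chemoreceptor gene srh-76 fell most, from 3654 and 4117 to 32 and 135 downstream counts, beside 5, 3, 103 and 162 gene counts. Its neighbours by gene order are let-418 and the collagen gene col-140. Counts of col-140 were 146795 and 138664 in WT and 474 and 4895 in the catalytic-dead strain. Those of let-418 were 13894 and 11385 in WT and 13078 and 13376 in the catalytic-dead strain. Whether the window of srh-76 holds reads of either neighbour was not tested. WBGene00022860 went from 4997 and 4618 to 10 and 13.

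The result depended on the reference, and its size varied with the libraries. With upstream window counts as the reference in place of gene counts, 586 genes rose and 476 fell of 3918 tested. The median log2 change with that reference was 0.115, beside 2.396 in the main fit. Of the genes named above, col-20, vit-5, rrp-1, gst-20 and fipr-2 then had a negative log2 change, and none of these 5 passed the test (edgeR, adjusted p from 0.138 to 0.666). Fits without 1 library left hour out of the model and tested fewer genes than the 10972 of the main fit. The median log2 change was 2.605 over 9786 genes without the catalytic-dead 6 h library. It was 2.138 over 8699 genes without the catalytic-dead 10 h library, beside 2.396 in the main fit.

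The upstream windows, whose position the labels do not state, were also higher in the catalytic-dead strain. Summed over shared genes they held 0.507 and 0.455 counts per 100 gene counts in WT and 1.04 and 1.42 in the catalytic-dead strain, against a range of 0.390 to 0.642 over the 15 WT libraries. Relative to library size, 4299 of 7505 windows rose (57.3%) and 113 fell (1.51%), with a median log2 change of 2.98. Relative to gene counts, 3448 of 7483 rose and 179 fell, with a median of 2.26. The library-size fit has 1 residual degree of freedom and took its spread almost wholly from all windows together, more so than the expression fit. Its count of calls is therefore not comparable with that of the expression test. The collagen gene col-166 had 0 and 0 upstream counts in WT and 277 and 1474 in the catalytic-dead strain. T26A8.3 had 0 and 0 against 433 and 998, eva-1, a receptor in axon guidance, 0 and 0 against 666 and 605, F53B6.11 0 and 0 against 611 and 595, and W02B12.12 0 and 0 against 649 and 397. W02B12.12 lies next to twk-5 by gene order, and the upstream window of the one and the downstream window of the other both had no WT count. Without the catalytic-dead 10 h library, and with hour left out of the model, 5246 windows were tested and the median log2 change was 2.30.

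In gene expression, yolk genes and 13 of 161 cuticle collagens were far lower, and 8 of 27 molting genes and 10 other collagens were higher. Over all 17212 genes tested, 80 rose (0.465%) and 45 fell (0.261%), each by more than 2-fold, and the median log2 change was 0.09. At an unadjusted p under 0.05, 3090 were higher and 1941 lower. The difference exceeded 2-fold at both hours in the same direction for far more genes, 3580 higher (20.8%) and 1624 lower (9.44%). The adjusted test has 1 residual degree of freedom, and its count moved with the setting. It was 1246 genes with RLE size factors, 3760 with DESeq2, and 0 without the WT 10 h library with hour left out. Without any scaling factor the median log2 change was 0.40, and with RLE factors it was -0.01.

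Of the yolk genes, which encode the vitellogenins made in the adult intestine and their receptor, 4 of 7 fell. All 7 were over 2-fold lower at both hours. The shares of all genes were 0.261% and 9.44%. Vit-6 stood at 6669.95 and 16047 CPM in WT and at 6.85 and 12.4 CPM in the catalytic-dead strain (log2 change -10.20 ± 0.35 SE, edgeR, adjusted p = 0.0212). For vit-2 the levels were 5782 and 14014 CPM against 9.96 and 20.3 CPM (-9.37 ± 0.33, adjusted p = 0.0212). Vit-5 (192 and 990 against 0.281 and 0.519 CPM) and vit-4 (21.04 and 289 against 0.0782 and 0.130 CPM) fell likewise. Yolk genes together took 1.48% and 3.65% of gene counts in WT and 0.00678% and 0.00855% in the catalytic-dead strain. In the WT time course they took 0.0124% at 0 h and 3.66% at 10 h, with every hour above both catalytic-dead libraries. In the xe31 time course they took 0.00739%, 0.00806% and 0.00779% at 0 h, 1 h and 2 h, close to the catalytic-dead values.

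Cuticle collagens moved in both directions, with 13 lower and 10 higher of 161 tested. Over 2-fold at both hours, 62 were higher and 29 lower, and the median log2 change was 1.39 (0.07 at 6 h and 3.04 at 10 h). Of all genes, 0.261% fell and 0.465% rose, and over 2-fold at both hours 20.8% were higher and 9.44% lower. Of the collagens that fell, col-19, an adult collagen, stood at 1854 and 2629 CPM in WT and 1.88 and 5.89 CPM in the catalytic-dead strain (log2 -9.43 ± 0.55, adjusted p = 0.0354). Col-122 went from 1729 and 2831 to 1.52 and 5.503 CPM, col-106 from 865 and 1527 to 2.80 and 4.12 CPM, and col-179 from 125 and 294 to 0.141 and 0.390 CPM. Col-184 and col-181 also fell, with log2 changes of -9.39 and -9.67. In the WT time course these 6 genes peaked at 9 h or 10 h, and at their lowest hour they stood between 0.208 and 4.12 CPM. The collagen dpy-14, whose loss makes animals short, rose from 0.534 and 0.505 CPM to 118 and 149 CPM (log2 7.93 ± 0.40, adjusted p = 0.0354). Its highest level in the WT time course was 0.610 CPM. Col-78 rose too, from 1 count in each WT library to 557 and 827 counts, a ratio of 664 (95% counting interval 184 to 5491).

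Among 27 molting genes, which build and shed the cuticle, 8 rose, none fell and 15 were over 2-fold higher at both hours, beside 0.465% and 20.8% of all genes. The same shares of all genes apply to the next 3 lists. The lipocalin lpr-3 stood at 3.81 and 1.43 CPM in WT and 228 and 77.2 CPM in the catalytic-dead strain (log2 5.77 ± 0.34, adjusted p = 0.0354). The matrix protein gene noah-1 went from 11.1 and 8.67 to 537 and 248 CPM and acn-1, a homologue of angiotensin-converting enzyme needed to molt, from 13.5 and 7.18 to 328 and 279 CPM. Among the regulators of molting and larval timing, 1 of 16 rose, lin-42, the homologue of Period, from 9.97 and 3.22 to 103 and 39.8 CPM. Of 50 hedgehog-related genes, 2 rose and 29 were over 2-fold higher at both hours. These 2 are wrt-10 (3.22 and 0.884 against 196 and 73.7 CPM) and its neighbour by gene order wrt-1 (3.902 and 2.189 against 94.6 and 42.2 CPM). Of 35 cuticulins 18 were over 2-fold higher at both hours and none passed the test. In the WT time course lpr-3, noah-1, wrt-10, wrt-1, acn-1 and lin-42 peaked between 1 h and 3 h, at levels above those of the catalytic-dead libraries.

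**Figure D4:**
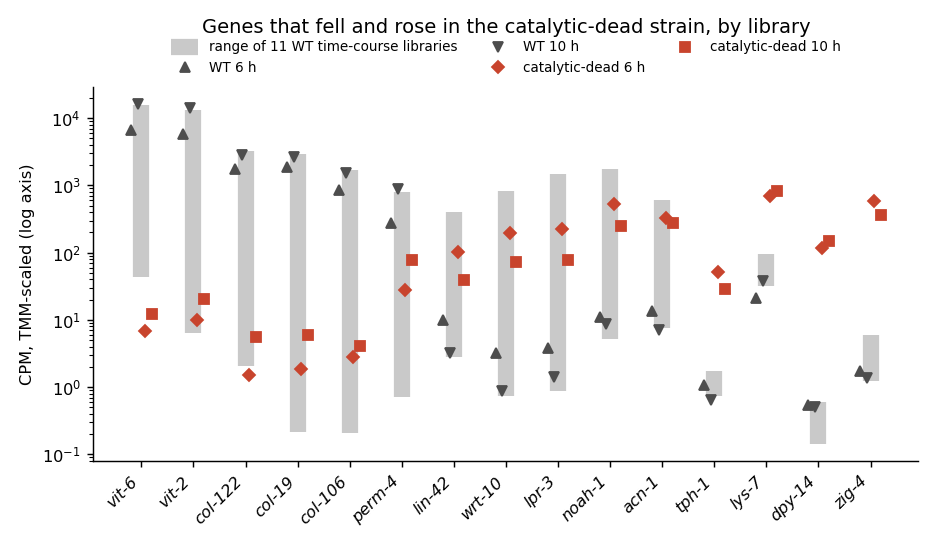
Levels (CPM, TMM-scaled, log axis) of 15 genes that passed the test, in the 4 libraries, with grey bars for the range over the 11 WT time-course libraries. From vit-6 to perm-4 the catalytic-dead libraries lie below their WT, for lin-42 to acn-1 they lie above it and inside the grey bar, and for tph-1, lys-7, dpy-14 and zig-4 they lie above the bar.

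Oocyte and sperm genes were mostly lower. Of 24 oocyte and eggshell genes, 3 fell and 23 were over 2-fold lower at both hours, beside 0.261% and 9.44% of all genes. The same shares of all genes apply to the next 3 lists. The eggshell genes perm-4 (273 and 890 against 28.1 and 77.0 CPM) and perm-2 (198 and 647 against 18.5 and 36.9 CPM) are neighbours, and puf-11 encodes an RNA-binding protein of oocytes (152 and 513 against 12.5 and 21.1 CPM). None of 55 sperm genes passed the test, and 43 were over 2-fold lower at both hours. The sperm gene spe-15 stood at 181 and 129 against 38.9 and 65.5 CPM (adjusted p = 0.0970), and the median sperm gene differed by log2 -4.60 at 6 h and -2.99 at 10 h. Summed over the list, sperm genes held 1953 and 1751 CPM in WT, 197 and 494 CPM in the catalytic-dead strain and 64.5 to 2209 CPM over the WT time course. In the germline list 8 of 30 were over 2-fold lower at both hours and none passed the test. Its member gld-1, a translational repressor, stood at 738 and 1040.3 against 167 and 263 CPM (log2 -2.12 ± 0.29, adjusted p = 0.0560). Of 31 replication and cell cycle genes, 13 were over 2-fold lower at both hours and none passed the test. The mitotic cyclin cyb-3 stood at 175 and 813 against 49.8 and 57.0 CPM (adjusted p = 0.0742). In whole animals, fewer cells of a type and less RNA per cell cannot be told apart.

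Across 11595 genes, the WT 6 h library was most like the 7 h library of the WT time course (Spearman rho 0.988) and the WT 10 h library most like the 10 h library (0.981). The catalytic-dead 6 h library was most like the 2 h library (rho 0.913, against 0.766 with the 6 h library). The catalytic-dead 10 h library was most like the 3 h library (rho 0.850, against 0.765 with the 10 h library). Genes are not independent replicates, and these correlations describe the libraries. The part of developmental time in the expression and readthrough results was not tested.

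**Figure D5:**
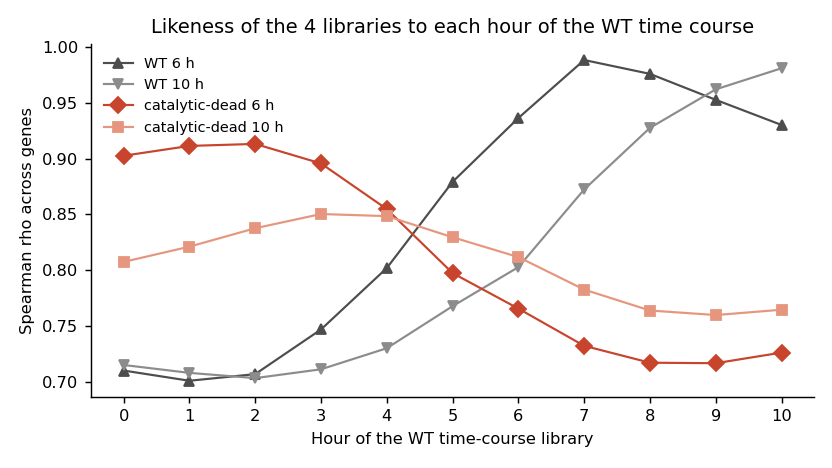
Spearman rho across 11595 genes between each of the 4 libraries and each hour of the WT time course. The WT libraries peak at 7 h and 10 h, and the catalytic-dead libraries at 2 h and 3 h.

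The catalytic-dead libraries were also set against the WT libraries of all hours. For 3520 genes (20.5%) both catalytic-dead libraries lay above all 15 WT libraries, and for 1272 (7.39%) below all of them. Of the 80 genes that rose, 40 lay above every WT library, and of the 45 that fell, 9 lay below every one. The other 40 and 36 lay within the WT range. The secreted immunoglobulin-domain protein gene zig-4, which maintains axon positions, stood at 1.74 and 1.35 CPM in WT and at 593 and 361 CPM in the catalytic-dead strain (log2 8.18 ± 0.41, adjusted p = 0.0354). Its highest level over the WT time course was 5.95 CPM. The lysozyme gene lys-7 rose from 21.1 and 38.5 to 701 and 823 CPM, above a WT time-course maximum of 94.95 CPM. The gene tph-1, for the enzyme that makes serotonin, rose from 1.09 and 0.652 to 51.8 and 28.4 CPM (maximum 1.74 CPM). Ferritin gene ftn-1 rose from 0.318 and 0.568 to 83.3 and 43.99 CPM (maximum 7.68 CPM), clec-52, a C-type lectin, from 12.8 and 12.4 to 146 and 115 CPM (maximum 14.6 CPM), and cyp-33D3, a cytochrome P450, from 0.318 and 0.147 to 28.6 and 31.9 CPM (maximum 1.13 CPM).

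Several genes that rose were close to absent from WT. F33D11.6 had 1 count in each WT library and 1450 and 838 in the catalytic-dead strain, a ratio of 1098 (95% counting interval 304 to 9074). The chemoreceptor genes srw-73 (1 and 1 against 751 and 1105 counts), srxa-10 (1 and 1 against 667 and 709) and srsx-35 (11 and 3 against 3443 and 1679) rose in the same way. WBGene00012098 had 1 and 2 against 1784 and 1146 counts, ZK355.8 6 and 3 against 1359 and 2098, the F-box gene fbxa-163 9 and 7 against 2246 and 3759, and F35E2.1 4 and 2 against 854 and 745. The srh, srw and srsx chemoreceptor list held 361 genes, of which 85 were tested. Among those 85, 2 rose, and 62 lay above every WT library (against 20.5% of all tested genes). A gene nearly silent in WT passes the count filter only through the catalytic-dead libraries, where it is then high. For this list and those that follow, the count above WT is therefore partly set by the filter and does not support a rise of the family. Of 13 ciliary transition zone genes none passed the test and 10 lay above every WT library, among them nphp-1 (0.763 and 0.674 against 22.9 and 21.8 CPM, adjusted p = 0.0560). Of 219 nuclear hormone receptor genes none passed the test, and 75 lay above every WT library. For the C-type lectins 2 of 165 rose and 47 lay above, and for the ceh homeobox genes 0 of 57 rose and 25 lay above. Of 29 pals genes none passed the test and 13 lay above every WT library. All 4 egas channel genes lay above every WT library, with egas-1 at 0.330 and 0.442 against 29.2 and 8.90 CPM (adjusted p = 0.0594). Some of these genes were higher in xe31 alone too. The log2 change in xe31 was 4.86 for egas-1, beside 5.34 in the catalytic-dead strain, and 4.53 for nphp-1, beside 4.90. For dpy-14 and F33D11.6 it was 4.44 and 6.13, beside 7.93 and 9.91, and none of these 4 differences between the strains passed the test (edgeR, adjusted p from 0.163 to 0.893).

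The windows of the genes that passed the expression test were counted. Of the 53 genes that rose and had a tested upstream window, 52 (98.1%) had a rise there, against 56.9% of genes that did not pass the expression test, and 16 of 70 (22.9%) rose in their own downstream ratio, against 45.9%. Of the genes that fell, 10 of 16 (62.5%) had a rise in the upstream window and 28 of 29 (96.6%) in the downstream ratio. The gene's own counts are part of that ratio. Upstream windows were kept on counts summed over the 4 libraries and tested against library size. A window nearly empty in WT thus enters only through the catalytic-dead libraries. For genes close to absent from WT, a rise in the upstream window is therefore partly fixed in advance. By gene order, 49 of 68 genes that rose (72.1%) had a neighbour whose downstream ratio rose, as did 17 of 33 that fell (51.5%) and 57.9% of all genes with a tested neighbour. No test of these differences was made. The reference table used has no strand, so that a neighbour may lie on either side. Where a window overlaps a neighbouring gene, window counts and gene counts hold some of the same reads.

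The housekeeping and stress lists held no gene that passed the expression test, which says little about them, since 0.465% of all genes rose and 0.261% fell. None of 81 ribosomal protein genes passed the test, and their median log2 change was 0.10, with rpl-7 at 3201 and 3040.2 CPM in WT and 3891 and 3525 CPM in the catalytic-dead strain. Muscle genes had a median of -0.16 with none of 25 called, and act-4 stood at 3200.06 and 2312 against 2734 and 1821 CPM. Of 12 cytosolic heat shock genes none passed the test. The Hsp90 gene hsp-90 stood at 3805 and 4363 against 2472 and 2413 CPM (log2 -0.80 ± 0.24, adjusted p = 0.119). In the nucleolar list, of which 14 of 16 members rose in the downstream ratio, no gene of 25 passed the test for expression and the median was -0.14. The median of all genes moved from 0.09 to 0.40 without scaling factors, a shift larger than the medians of the ribosomal, muscle and nucleolar lists, so that these show no direction. The nucleolar GTPase gene nog-1 stood at 395 and 259 against 900.5 and 1296 CPM (adjusted p = 0.0857). None of 20 cleavage and polyadenylation factors and none of 19 exosome and Integrator genes passed the test. Of the latter, ints-11 stood at 108 and 137 against 70.1 and 68.3 CPM (adjusted p = 0.141) and exos-4.2, an exosome subunit, at 32.5 and 45.1 against 93.3 and 148 CPM (adjusted p = 0.0618).

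The effect of the catalytic-dead strain was set against that of xe31 alone, each relative to its own WT at 6 h and 10 h. For gene expression, 1 gene was higher (0.00528% of 18925) and 11 were lower (0.0581%) in the catalytic-dead effect. The gene zig-4 changed by log2 8.18 in the catalytic-dead strain and 0.51 in xe31, a difference of 7.63 ± 0.31 (edgeR, adjusted p = 0.0271). Vit-6 and vit-2 changed by -10.20 and -9.37 against -0.06 and -0.11, differences of -10.16 ± 0.31 and -9.29 ± 0.28 (both adjusted p = 0.0141). The others were the collagens col-179, col-19, col-122, col-184, col-119, col-106 and col-80 and the genes F02E8.4 and F08H9.2. At an unadjusted p under 0.05, 3912 genes differed. No gene was called with hour left out of the model. The fits without 1 library also leave hour out and called none.

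For the downstream ratio no gene passed the test of the difference from xe31 in either direction (0% and 0% of 13808, edgeR), and 1467 were higher and 317 lower at an unadjusted p under 0.05. The median difference was 0.87 on the log2 scale. In the same fit, the xe31 effect had a median of 1.18 and called 930 genes higher and 17 lower. Genes named for their rise in the catalytic-dead strain had downstream counts in xe31 as well. Ttr-15, among the 15 largest rises, had 1 and 4 downstream counts in the resequenced WT and 473 and 2795 in xe31, and vit-5 had 2 and 8 against 19 and 62. Of the list members, rpl-33 had 11 and 8 against 648 and 2858, and rrp-1 had 13 and 5 against 308 and 3922. A p that misses the threshold does not show that the strains act alike at single genes.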

How the data were processed

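Whole-number read counts were deposited by the authors, per the file headers, for genes and for 2 windows beside each gene, 1 downstream and 1 upstream. RNA was extracted with TRI Reagent, treated with DNase and made into TruSeq Standard mRNA libraries, per the labels' protocols. The build is ce10, per the submitters' processing notes. The sources used here name no aligner, counter or strandedness, nor the place and length of the windows. Hence overlapping, antisense and near-identical genes could not be told apart. The window table lists 16505 genes, of which 447 have empty upstream windows. Columns were matched to strain and hour by name. Symbols came from a reference table for 42362 of 44200 gene IDs, and gene order from RefSeq genes of WBcel235.

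Gene counts were tested with edgeR 4.0.16 (quasi-likelihood, TMM, filterByExpr with a minimum count of 10) in R 4.3.3, with hour as a block, which pairs the strains by the labels and leaves 1 residual degree of freedom. Readthrough is the change of the downstream count relative to the gene count, fitted jointly in edgeR. It was tested where the 4 libraries summed to at least 20 downstream counts and averaged at least 10 gene counts. Upstream counts were tested relative to library size, with at least 20 counts. The difference from xe31 used the 4 resequenced libraries, with experiment and hour as blocks and 2 residual degrees of freedom. Benjamini-Hochberg adjustment covered all features tested, at 0.05. Log2 ratios per hour have a pseudocount of 1. A fold against 0 counts uses a floor of 3 counts over both WT libraries, and folds on 1 to 3 counts carry exact binomial 95% intervals, which cover counting error only. The scripts were tested on simulated data.

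The comparison, the 33 gene lists and the rule for named genes were chosen with earlier results of these data known. The rule took xrn-2, paxt-1 and xrn-1, the 10 largest rises and 10 largest falls of expression above a mean log2 CPM of 2, the 15 largest rises and 5 largest falls of readthrough with at least 50 window counts, 5 upstream windows, up to 3 called members per list (or 2 of the highest level), neighbours of xrn-2 and the largest differences from xe31. Alternatives were RLE factors, DESeq2 1.42.0, limma 3.58.1, other filters, references and dispersions, no block, and leaving out each library.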

Additional observations from a re-analysis of the deposited data

Results flagged for a closer look

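The genes below changed differently in the catalytic-dead strain and in xe31 by the test of the difference itself (edgeR, experiment by strain, adjusted p from 0.0141 to 0.0453, n = 2 hours per strain and experiment). The catalytic-dead effect was lower for vit-6 by a log2 difference of -10.16, for vit-2 by -9.29, for col-179 by -9.50, for col-19 by -9.34, for col-122 by -9.14, for col-184 by -8.89, for col-119 by -8.52, for F02E8.4 by -8.40, for col-106 by -8.04, for col-80 by -7.52 and for F08H9.2 by -5.25. It was higher for zig-4, by 7.63. The xe31 effect on these 12 genes lay between -0.53 and 0.51. Of the genes lower in the catalytic-dead strain, vit-6, col-184 and col-80 lay below every WT library, and vit-2, col-179, col-19, col-122, col-119, F02E8.4 and col-106 within the range of the WT hours. The part of developmental time in the difference was not tested.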

How the results depend on the processing

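The 125 genes called for expression, with hour as a block that pairs the strains, became 2374 with no replicate block, 1246 with RLE size factors, 3760 with DESeq2 and 1113 with no filter. With dispersion shared with the resequenced or the time-course libraries they were 3406 and 11978, and without 1 library 0 to 2974. The xrn-2 change, log2 1.99, passed the threshold at 1.893 with RLE factors and with DESeq2, at 1.958 and 2.027 with shared dispersion, at 1.952 with no filter and at 1.993 with no replicate block. It missed the threshold at 2.307 without scaling factors, and was 1.858 to 2.093 without 1 library. The 5216 genes called for readthrough were 1062 with the upstream window as the reference, 5578 with no replicate block and 1509 to 4965 without 1 library. The 4412 upstream windows were 4452 with no replicate block and 2744 to 3789 without 1 library. The 12 expression differences from xe31 were 0 with no replicate block and without any 1 library (3018 and 2391 to 2845 at an unadjusted p under 0.05), 46 with no filter and 24 with the time-course libraries. For readthrough they were 0 under each alternative run.

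With the upstream window as the reference, the ratio changed sign for ceh-38 (-0.892), clec-87 (-0.8515), col-106 (-4.991), col-20 (-3.246), fipr-2 (-2.556), gst-20 (-0.7131), mec-17 (-3.173), msp-38 (-2.019), nhr-177 (-0.7039), nspd-5 (-4.244), rrp-1 (-0.8513), ugt-48 (-0.6186), vit-5 (-1.450) and wago-1 (-3.499). Relative to library size it did so for F35E2.2 (2.214) and srh-195 (0.001147). The uncalled eat-2 (-0.11) was -0.7412 without the WT 10 h library and turned to 0.1782 at 10 h alone, 0.2074 without scaling factors, 0.5985 without the WT 6 h library and 0.1031 without the catalytic-dead 10 h library. Of these reversed values only that of nspd-5 passed the test (adjusted p = 0.0029), and the 10 h value of eat-2 has no test. The cause was not tested. Over 194 genes' results and 2400 alternative values, 2101 kept direction and, where tested, side of the threshold. Of the rest, 101 newly passed it, 178 no longer did and 20 changed sign. Values at 6 h or 10 h alone have no test and were judged by direction only. Library totals without scaling factors, downstream counts relative to library size and limma with voom weights were chosen after seeing the data. Fits without 1 library leave hour out of the model and assume that the lone library varies like the others.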
